A study of Mus musculus with 21 samples.

Results

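The 9 genes described here encode proteins that make, remove, carry or sense extracellular adenosine: Entpd1, Entpd2, Nt5e, Ada, Adk, Slc29a1, Adora1, Adora2a and Adora2b. They were taken by gene symbol, and all 9 were found among the 27968 genes of the sorted-cell table and among the 19321 genes with values in the coculture table. The genes were picked with their expression in these libraries already known, so their values, fold changes and calls are given as a description, and no p-value is given for any of them as support for a difference. RNA-seq was performed on 21 libraries, 3 replicates in each of 7 groups, from mouse pluripotent stem cells (PSCs), cells derived from them, and cells sorted from mice. In the differentiation system, colonies from a 3D self-assembling peptide culture of PSCs were moved onto OP9, a mouse bone marrow stromal line stopped from dividing with mitomycin C (3D+OP9), or onto 0.1% gelatin with no stromal cells (3D+0.1% gelatin). Total cells of both arms were collected on day 5. From the 3D+OP9 arm, lineage-negative Sca-1+ c-kit+ (LSK) cells were sorted on day 5 into D5-LSKCD201+ and D5-LSKCD201- fractions, CD201 being the endothelial protein C receptor used to enrich hematopoietic stem cells. The OP9 medium held stem cell factor, IL-3 and Flt3 ligand. The undifferentiated cells (mESC) were sorted by SSEA-1. These 5 groups carry the 129/ola background in their labels, while the methods name both 129/ola and C57BL/6 as sources of the embryonic stem cells. The other two, BM-LSKCD201+ (bone marrow, mice 6 to 8 weeks old) and FL-LSKCD201+ (mid-gestation fetal liver), are C57BL/6, so that for D5-LSKCD201+ against either of them the labelled strain and the origin of the cells cannot be told apart. The methods name antibodies to c-kit, lineage and CD201 for sorting, and do not name Sca-1 among them.

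Extracellular ATP and ADP, released by stressed or active cells, are cut to AMP by CD39 (Entpd1), while the related enzyme Entpd2 prefers ATP. CD73 (Nt5e) then cuts AMP to adenosine, which acts on G protein-coupled receptors: A1, encoded by Adora1, lowers cAMP, while the receptors encoded by Adora2a and Adora2b raise it. Adenosine is cleared by entry through the equilibrative transporter ENT1 (Slc29a1), by deamination to inosine (Ada) and by phosphorylation to AMP (Adk). In the blood system this pathway is known for the immune deficiency of people and mice lacking adenosine deaminase, for CD39 and CD73 on endothelium and regulatory lymphocytes, and for adenosine signalling during the emergence of blood cells from endothelium.

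Values are FPKM, fragment counts divided by transcript length and by the size of the library, as the authors deposited them, and their sums per library ran from 483263 to 508307 in the coculture table and from 508622 to 620332 in the sorted-cell table. FPKM do not give the sequencing depth, so the spread of 3 replicates is the only error given. One library stood apart in 4 groups: replicate 1 of BM-LSKCD201+, replicate 1 of FL-LSKCD201+, replicate 2 of D5-LSKCD201- and replicate 3 of 3D+OP9 each lay over 1.5 times as far from both other replicates as these lay from each other. Procr, which encodes CD201, stood at 59.7 ± 2.03 FPKM in the D5-LSKCD201+ libraries (SD, n = 3), against 3.48 ± 0.411 in the libraries of D5-LSKCD201-. The D5-LSKCD201+ libraries also held Kit (44.5 ± 2.94 FPKM) and Ly6a, which encodes Sca-1 (61.3 ± 3.37). Ptprc, which encodes the leukocyte antigen CD45, was at 0.409 ± 0.167 FPKM in D5-LSKCD201+, against 66.8 ± 4.21 in BM-LSKCD201+ and 43.5 ± 7.54 in FL-LSKCD201+. The summed FPKM of 9 endothelial markers (such as Cdh5 and Tek) was 2213 to 2248 in D5-LSKCD201+, 446 to 489 in FL-LSKCD201+, 321 to 363 in BM-LSKCD201+, 123 to 132 in D5-LSKCD201- and 52.0 to 55.8 in mESC. No marker was at 0 in all 3 libraries of a group, but some were near it. Cdh5 averaged 70.8 FPKM in D5-LSKCD201+, 1.13 in FL-LSKCD201+ and 0.0359 in BM-LSKCD201+. Means were below 1 FPKM for Kdr in FL-LSKCD201+, for Cdh5 and Kdr in BM-LSKCD201+, and for Cdh5, Emcn, Kdr and Tie1 in mESC. The sum of 6 leukocyte markers was 44.5 to 48.5 in D5-LSKCD201+ and 1253 to 1789 over FL- and BM-LSKCD201+, and that of 6 naive pluripotency markers was 3478 to 3903 in D5-LSKCD201-, 6288 to 6833 in mESC and 22.7 to 30.3 in D5-LSKCD201+. In such bulk samples, fewer cells of a type and less RNA per cell cannot be told apart.

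D5-LSKCD201+ cells had the highest Entpd1, Nt5e and Adora2a of the 5 sorted groups and the lowest Ada and Adora2b. Entpd1 was 60.3-fold and Adora2a 19.6-fold higher in D5-LSKCD201+ than in D5-LSKCD201-, while Ada was 4.07-fold and Adora2b 6.77-fold lower. The latter was 10.2-fold without replicate 2 of D5-LSKCD201+, the highest of its group for Adora2b. Adk and Slc29a1 were the most abundant of the 9 genes in every sorted group. Adk was highest in mESC, and Slc29a1 was similar in mESC and D5-LSKCD201+. Of the sorted groups, D5-LSKCD201- alone had a mean of Adora1 above 1 FPKM, and Entpd2 was below 1 FPKM in every library.

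**Figure D1:**
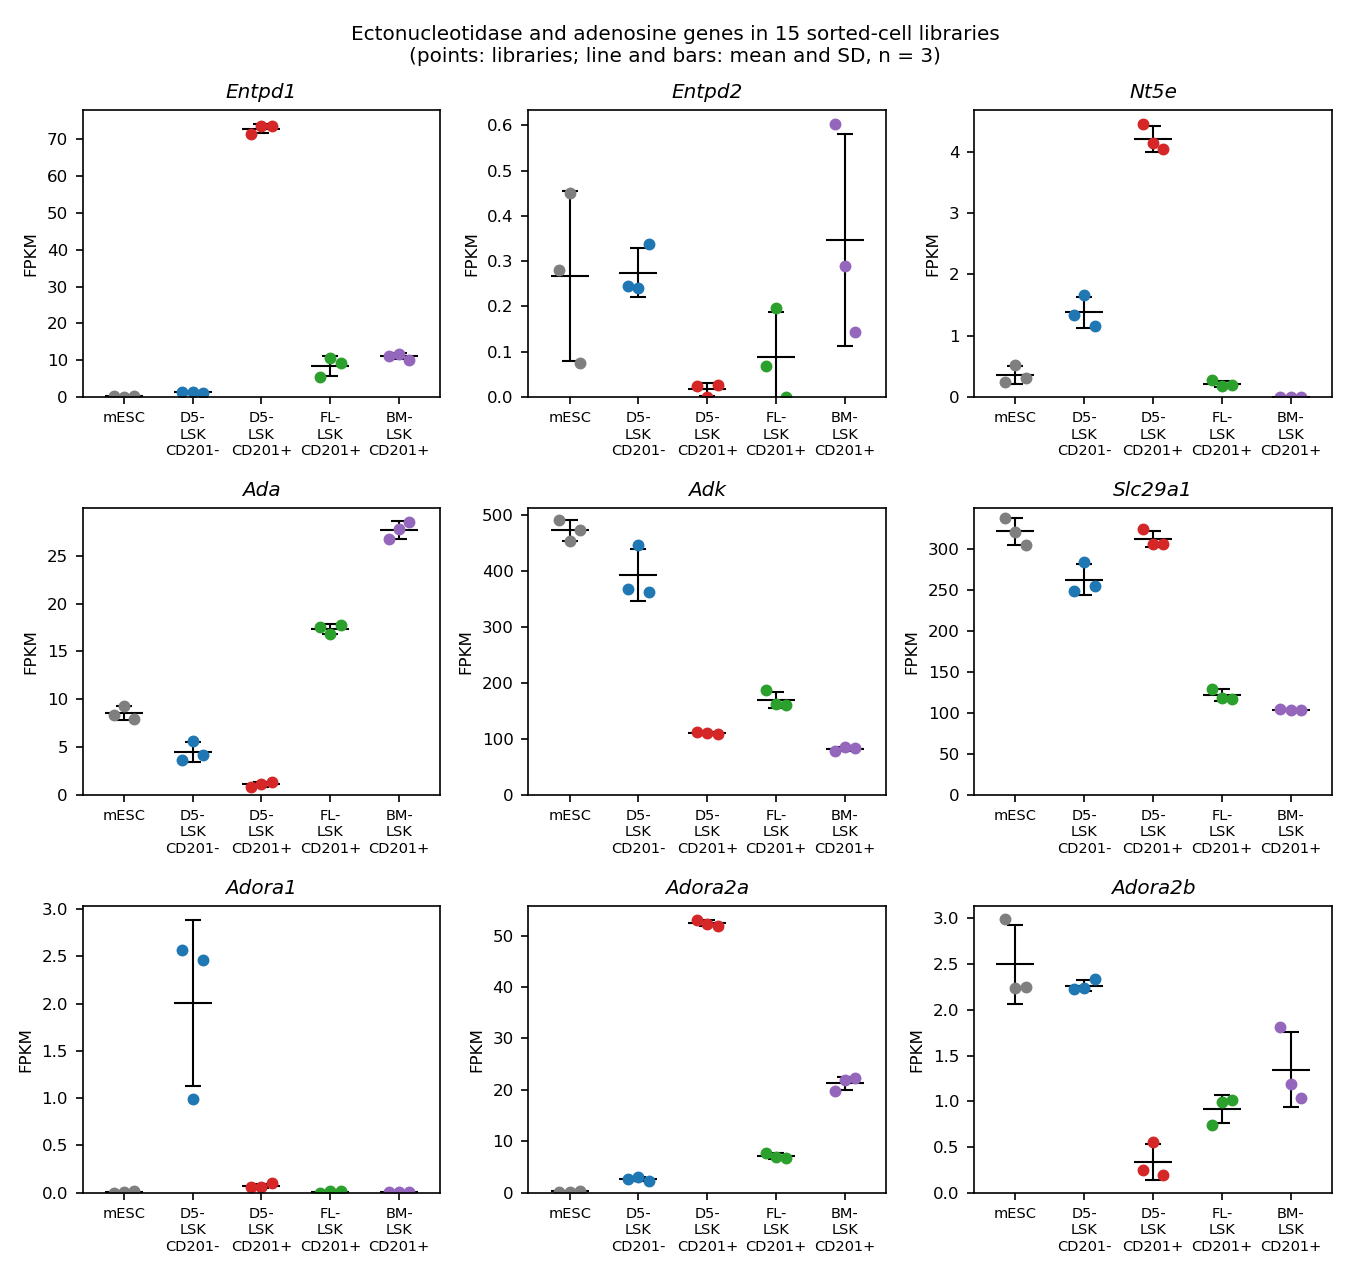
FPKM of the 9 genes (one panel each, y axis from 0) in mESC, D5-LSKCD201-, D5-LSKCD201+, FL-LSKCD201+ and BM-LSKCD201+ cells. Points are the 3 libraries of a group, and the line with bars is their mean and SD. The 3 D5-LSKCD201+ libraries lie at 71.4 to 73.8 for Entpd1 and 51.9 to 53.1 for Adora2a, above every other library.

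Entpd1 (gene number 12495, ENSMUSG00000048120; GRCm38 chromosome 19, 40612366 to 40741602, plus strand) was at 71.4, 73.6 and 73.8 FPKM in the 3 D5-LSKCD201+ libraries and at 1.34, 1.21 and 1.08 in D5-LSKCD201-. Its level was 11.2, 11.8 and 10.1 in BM-LSKCD201+. FL-LSKCD201+ had 5.32, 10.6 and 9.31, where the low value is replicate 1, the library that stood apart. The sum of 6 endoderm markers was also lowest in that library (344, 518 and 505 in replicates 1, 2 and 3). The stromal and trophoblast sums were lowest there too. The other marker sums were highest in that library, among them the endothelial (489, 449.6 and 446) and leukocyte sums (1468, 1253 and 1265). Entpd1 was at 0.223, 0.0211 and 0.169 FPKM in mESC. Ranked by mean, the groups ran D5-LSKCD201+, BM-LSKCD201+, FL-LSKCD201+, D5-LSKCD201- and mESC, and only the BM- and FL-LSKCD201+ libraries overlapped. On the log2(FPKM + 1) scale, the difference of D5-LSKCD201+ was 5.07 (SE 0.08) from D5-LSKCD201-, 6.03 (SE 0.08) from mESC, 3.02 (SE 0.22) from FL-LSKCD201+ and 2.62 (SE 0.06) from BM-LSKCD201+. Without replicate 1 of FL-LSKCD201+ the third of these was 2.75 (SE 0.06). The endothelial marker sum given above had the same highest group as Entpd1, and the part of these sums in the result was not tested. Gm16027, Gm8783 and AC166063.1 are annotated inside the Entpd1 span on the same strand, and how their reads were assigned is not given in the sources used here.

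Nt5e (gene number 23959, ENSMUSG00000032420; chromosome 9, 88327197 to 88372092, plus strand) was at 4.46, 4.15 and 4.05 FPKM in D5-LSKCD201+. The D5-LSKCD201- libraries had 1.34, 1.66 and 1.16, and those of mESC had 0.237, 0.519 and 0.310. FL-LSKCD201+ had 0.273, 0.169 and 0.188, and Nt5e was listed at 0 in all 3 BM-LSKCD201+ libraries. D5-LSKCD201+ and D5-LSKCD201- were each apart from all other groups, mESC and FL-LSKCD201+ overlapped, and no fold is given against bone marrow. The stromal marker sum was also highest in D5-LSKCD201+ (98.0 to 104) and next in D5-LSKCD201- (41.0 to 76.1), against at most 15.4 in the other sorted groups, and its part in the result was not tested. The ectonucleotidases thus differed in the sorted cells from mice: BM-LSKCD201+ had Entpd1 at 11.0 ± 0.859 FPKM with Nt5e listed at 0, and FL-LSKCD201+ had Entpd1 at 8.42 ± 2.77 with Nt5e at 0.210 ± 0.0554. The log2 difference of D5-LSKCD201+ for Nt5e was 1.13 (SE 0.11) from D5-LSKCD201- and 2.11 (SE 0.08) from FL-LSKCD201+.

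Entpd2 (gene number 12496, ENSMUSG00000015085; chromosome 2, 25395874 to 25401321, plus strand) was highest in BM-LSKCD201+, at 0.346 ± 0.234 FPKM, and lowest in D5-LSKCD201+, at 0.0168 ± 0.0146. Each group overlapped its neighbour in the order of levels. D5-LSKCD201+ was at most 0.0261 FPKM, below every library of D5-LSKCD201-, mESC and BM-LSKCD201+. No comparison held Entpd2 after the filter at a mean of 0.5 FPKM. The locus that the sorted-cell table gives for Entpd2 runs on over Npdc1 on the same strand. Of the summed FPKM of Entpd1, Entpd2 and Nt5e, Entpd1 made up 94.5% ± 0.360 in D5-LSKCD201+, 97.0% ± 1.90 in BM-LSKCD201+, 96.2% ± 2.06 in FL-LSKCD201+, 42.2% ± 3.38 in D5-LSKCD201- and 21.0% ± 16.3 in mESC.

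Promoter windows are shown for Entpd1 and Nt5e, the ectonucleotidases highest in D5-LSKCD201+, and for Ada, which was lowest there. RefSeq (GRCm38.p6) gave 18 windows for 8 of the 9 genes, each from 250 bases before to 50 bases after an annotated start, 300 bases in all; Adora2a was not among them. Entpd1 has a window at both of its annotated starts. Windows are written 5′ to 3′ on the gene's strand, and capitals mark TGACG (the cAMP response element half-site) and AGGAAG (an ETS core with flanks) on either strand, which therefore can also read CGTCA or CTTCCT.
Entpd1 first start, chr19:40612116-40612415, plus strand: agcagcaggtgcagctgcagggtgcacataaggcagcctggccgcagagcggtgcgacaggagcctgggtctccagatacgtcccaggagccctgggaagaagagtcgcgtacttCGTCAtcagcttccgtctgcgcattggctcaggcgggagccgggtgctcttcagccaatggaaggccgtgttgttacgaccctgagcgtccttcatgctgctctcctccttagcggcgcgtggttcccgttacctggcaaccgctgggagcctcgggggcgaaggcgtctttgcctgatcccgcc
Entpd1 second start, chr19:40659520-40659819, plus strand: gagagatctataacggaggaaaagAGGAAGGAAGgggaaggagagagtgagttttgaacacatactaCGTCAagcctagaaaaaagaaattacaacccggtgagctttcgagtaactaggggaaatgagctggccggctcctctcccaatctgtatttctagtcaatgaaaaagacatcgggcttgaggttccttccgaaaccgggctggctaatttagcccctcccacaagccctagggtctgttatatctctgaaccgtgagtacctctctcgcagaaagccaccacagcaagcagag
Nt5e, chr9:88327359-88327658, plus strand: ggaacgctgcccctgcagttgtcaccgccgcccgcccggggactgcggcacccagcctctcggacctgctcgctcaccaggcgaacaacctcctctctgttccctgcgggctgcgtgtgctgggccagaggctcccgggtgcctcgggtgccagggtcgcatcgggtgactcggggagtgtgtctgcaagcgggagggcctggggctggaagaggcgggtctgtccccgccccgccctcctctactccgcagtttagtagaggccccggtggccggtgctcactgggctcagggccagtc
Ada, chr2:163750190-163750489, minus strand: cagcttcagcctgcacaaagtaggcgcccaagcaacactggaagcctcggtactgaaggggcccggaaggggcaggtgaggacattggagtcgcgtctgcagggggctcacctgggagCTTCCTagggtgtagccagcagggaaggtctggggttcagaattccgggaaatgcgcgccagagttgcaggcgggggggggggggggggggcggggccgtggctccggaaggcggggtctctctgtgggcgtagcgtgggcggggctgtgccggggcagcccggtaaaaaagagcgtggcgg
TGACG was in both Entpd1 windows, and 20.8% of all 32851 windows hold it. AGGAAG was in the second Entpd1 window, as 2 copies that overlap, and in the Ada window, and 35.4% of all windows hold it. The Nt5e window held none of the 5 motifs searched on both strands, the others being AGATAA (read by GATA factors, 11.2% of all windows), TGGGAA (RBPJ, 25.6%) and ACGTG (the hypoxia response core, 19.6%, which overlaps TGACG in TGACGTG). Among the windows of the other genes, TGACG was in 1 of the 2 of Adk and in 1 of the 8 of Slc29a1, and the first Entpd1 window also held TGGGAA. The Entpd2 window, 1 of the 2 windows of Adora1 and 3 of the 8 of Slc29a1 held AGGAAG. The first Entpd1, Nt5e and Ada windows had a GC content of 64%, 71% and 68%, and the second Entpd1 window 48.7%, beside a median of 52.7% over all windows. A match is a stretch of letters in these windows, and whether any factor binds there was not measured.

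Ada, the deaminase, was lowest in D5-LSKCD201+, where Entpd1 and Nt5e were highest. Ada (gene number 11486, ENSMUSG00000017697; chromosome 2, 163726584 to 163750239, minus strand) was at 0.848, 1.09 and 1.36 FPKM in D5-LSKCD201+ and at 3.67, 5.62 and 4.15 in D5-LSKCD201-. It was 8.34, 9.31 and 7.94 in mESC, 17.5, 16.8 and 17.7 in FL-LSKCD201+, and 26.7, 27.8 and 28.5 in BM-LSKCD201+. All 5 groups were apart from each other. The log2 difference of D5-LSKCD201+ was -1.38 (SE 0.16) from D5-LSKCD201-, -2.19 (SE 0.11) from mESC, -3.13 (SE 0.11) from FL-LSKCD201+ and -3.78 (SE 0.10) from BM-LSKCD201+. The leukocyte marker sum was also highest in the FL- and BM-LSKCD201+ groups. Among the other groups it was highest in D5-LSKCD201+, where Ada was lowest (44.5 to 48.5, against 24.1 to 26.2 in D5-LSKCD201- and 23.0 to 25.4 in mESC). The part of this sum in the result was not tested.

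Adk, the kinase that returns adenosine to AMP inside the cell, had another order. Adk (gene number 11534, ENSMUSG00000039197; chromosome 14, 21052574 to 21448569, plus strand) was at 492, 454 and 473 FPKM in mESC and at 368, 447 and 363 in D5-LSKCD201-. FL-LSKCD201+ had 187, 163 and 161, D5-LSKCD201+ had 113, 110.0 and 109, and BM-LSKCD201+ had 77.7, 85.4 and 82.9. The groups did not overlap, although replicate 2 of D5-LSKCD201-, the library that stood apart, came close to the lowest mESC library (447 against 454). The naive pluripotency marker sum was highest in the same 2 groups as Adk, and its part in the result was not tested. The log2 difference of D5-LSKCD201+ was -1.81 (SE 0.08) from D5-LSKCD201- and -2.09 (SE 0.04) from mESC, but 0.43 (SE 0.05) from BM-LSKCD201+. The ratio of Adk to Ada in FPKM was 105 ± 26.8 in D5-LSKCD201+, 89.1 ± 10.5 in D5-LSKCD201-, 55.8 ± 6.10 in mESC, 9.81 ± 0.791 in FL-LSKCD201+ and 2.96 ± 0.0939 in BM-LSKCD201+. That ratio overlapped between both D5 fractions, and it was 35.4-fold higher in D5-LSKCD201+ than in BM-LSKCD201+.

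Slc29a1, the transporter, separated the PSC and PSC-derived cells from the cells sorted from mice. Slc29a1 (gene number 63959, ENSMUSG00000023942; chromosome 17, 45585200 to 45599606, minus strand) was at 338, 321 and 305 FPKM in mESC and at 324, 306 and 306 in D5-LSKCD201+. D5-LSKCD201- had 249, 284 and 254. It was 129, 118 and 117 in FL-LSKCD201+ and 104, 103 and 103 in BM-LSKCD201+. The mESC and D5-LSKCD201+ libraries overlapped, and the other neighbours in this order did not. The log2 difference of D5-LSKCD201+ from mESC was -0.04, with a 95% interval of -0.14 to 0.06 (0.06 after quantile normalization of the libraries), whereas it was 1.36 (SE 0.08) from FL-LSKCD201+ and 1.59 (SE 0.04) from BM-LSKCD201+. Gm17080 lies on the opposite strand over Slc29a1, and the sources used here do not say whether the counting used strand.

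Adora2a had the highest mean FPKM of the receptors in the sorted groups other than mESC, although the receptors overlapped in D5-LSKCD201-. Adora2a (gene number 11540, ENSMUSG00000020178; chromosome 10, 75316877 to 75334784, plus strand) was at 53.1, 52.3 and 51.9 FPKM in D5-LSKCD201+ and at 19.8, 21.8 and 22.2 in BM-LSKCD201+. FL-LSKCD201+ had 7.77, 6.85 and 6.66, D5-LSKCD201- had 2.70, 3.01 and 2.31, and mESC had 0.206, 0.152 and 0.389. No groups overlapped. The log2 difference of D5-LSKCD201+ was 3.87 (SE 0.09) from D5-LSKCD201-, 5.42 (SE 0.08) from mESC, 2.73 (SE 0.08) from FL-LSKCD201+ and 1.26 (SE 0.06) from BM-LSKCD201+. BM-LSKCD201+ had 3.00-fold more Adora2a than FL-LSKCD201+, in contrast to Entpd1, for which these groups overlapped.

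Adora2b, the A2B receptor, was highest in mESC and D5-LSKCD201-, where Adora2a was lowest. Adora2b (gene number 11541, ENSMUSG00000018500; chromosome 11, 62248984 to 62266453, plus strand) was at 2.99, 2.24 and 2.25 FPKM in mESC and at 2.22, 2.24 and 2.33 in D5-LSKCD201-, and these groups overlapped. It was 1.82, 1.19 and 1.04 in BM-LSKCD201+, 0.736, 0.986 and 1.01 in FL-LSKCD201+, and 0.252, 0.559 and 0.191 in D5-LSKCD201+, with no overlap between these 3 groups. Replicate 1 of BM-LSKCD201+, the library that stood apart, was the highest of its group. D5-LSKCD201+ differed from D5-LSKCD201- by -1.30 (SE 0.12) on the log2 scale. The naive pluripotency marker sum was also highest in mESC and D5-LSKCD201-, and its part in the result was not tested.

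Adora1, the A1 receptor, was found in D5-LSKCD201- and was close to 0 in the other sorted groups. Adora1 (gene number 11539, ENSMUSG00000042429; chromosome 1, 134199223 to 134235431, minus strand) was at 2.57, 0.993 and 2.46 FPKM in D5-LSKCD201- and at 0.0643, 0.0587 and 0.0976 in D5-LSKCD201+. It did not exceed 0.0166 FPKM in any mESC, FL-LSKCD201+ or BM-LSKCD201+ library. Replicate 2 of D5-LSKCD201- was the low one, and it was also low for a list of 6 trophoblast markers (38.1, 14.5 and 38.4 FPKM in sum in replicates 1, 2 and 3, with Prl3d1 and Tpbpa at 0) and for 11 stromal markers (76.1, 41.0 and 74.4), and high for the erythroid markers (49.2, 119.7 and 56.1). In D5-LSKCD201+, where Adora1 was near 0, the trophoblast sum was 0.823 to 1.21 and the stromal sum 98.0 to 104. Their part in the result was not tested. On the log2 scale D5-LSKCD201+ differed from D5-LSKCD201- by -1.44 (SE 0.22), and without replicate 2 it was -1.71 (SE 0.08). The locus of Adora1 in the sorted-cell table runs on over part of Mybph on the opposite strand.

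The makeup of the receptor mRNA changed accordingly. The 3 receptors summed to 52.8 ± 0.640 FPKM in D5-LSKCD201+, 22.6 ± 0.905 in BM-LSKCD201+, 8.01 ± 0.433 in FL-LSKCD201+, 6.95 ± 0.641 in D5-LSKCD201- and 2.75 ± 0.406 in mESC. Adora2a made up 99.2% ± 0.344 of that sum in D5-LSKCD201+, 94.0% ± 2.12 in BM-LSKCD201+ and 88.4% ± 2.56 in FL-LSKCD201+. In mESC, Adora2b made up 90.5% ± 5.03. In D5-LSKCD201- the sum was spread over the receptors, with Adora1 at 28.3% ± 10.7, Adora2a at 38.9% ± 8.25 and Adora2b at 32.8% ± 3.07.

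**Figure D2:**
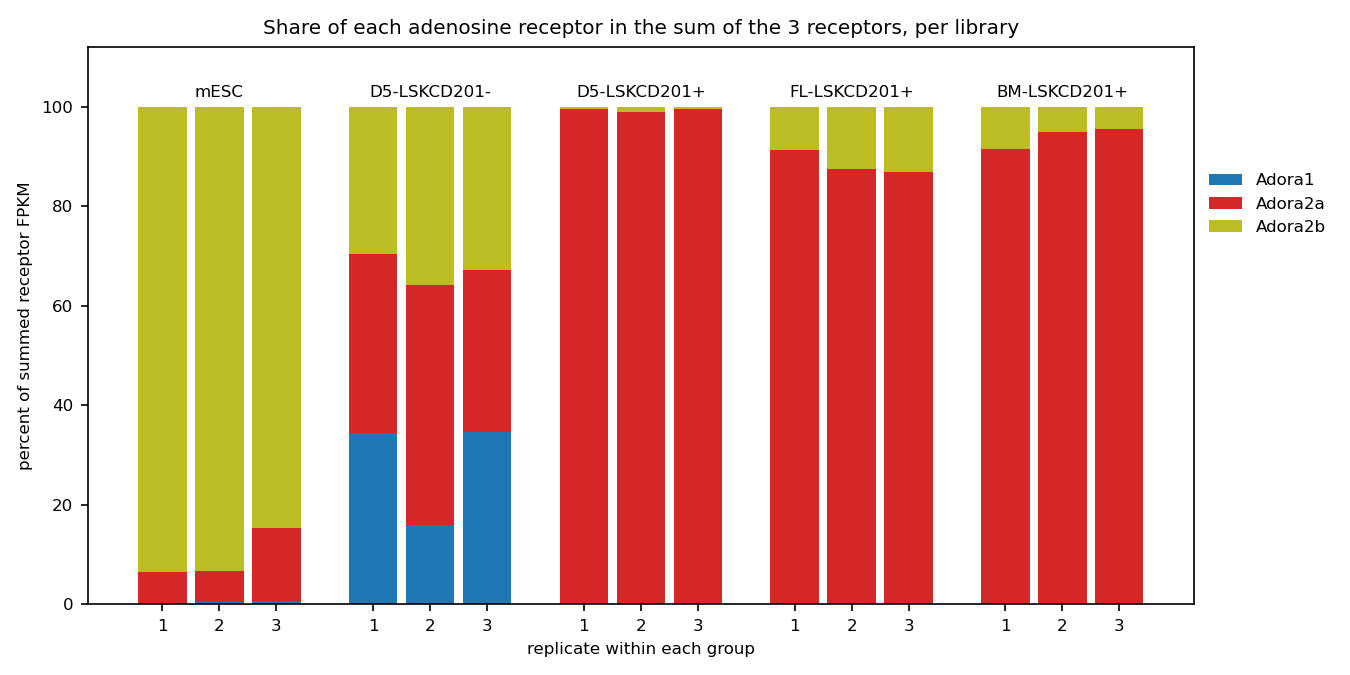
Share of Adora1, Adora2a and Adora2b in the summed FPKM of the 3 receptors (y axis, percent), one stacked bar for each of the 15 sorted-cell libraries, by group and replicate number. Adora2a fills 98.8% to 99.4% of the bar in D5-LSKCD201+, and Adora2b 84.7% to 93.6% in mESC.

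The 9 genes were then set beside all genes in 7 comparisons. Calls of higher or lower needed a limma adjusted p under 0.05 with a log2 difference of 1 or more in either direction, after a filter at a mean of 0.5 FPKM over the libraries compared. Between D5-LSKCD201+ and D5-LSKCD201-, 24.7% of the 13691 genes fitted were called, 10.8% higher and 13.9% lower. Entpd2 did not pass the filter, and of the 8 others, Entpd1, Nt5e and Adora2a were called higher and Ada, Adk, Adora1 and Adora2b lower, leaving Slc29a1 at a log2 difference of 0.25 (SE 0.06). Against mESC, where 37.6% of all genes were called (19.5% higher and 18.1% lower), 7 of the 9 genes were fitted, with Entpd1, Nt5e and Adora2a higher and Ada, Adk and Adora2b lower in D5-LSKCD201+. Against FL-LSKCD201+, with 34.7% of all genes called (15.1% higher and 19.6% lower), and against BM-LSKCD201+, with 44.7% (17.5% higher and 27.2% lower), 7 of the 9 genes were fitted, and in both Entpd1, Nt5e, Slc29a1 and Adora2a were called higher and Ada lower. The D5-LSKCD201+ libraries are shared by these 4 comparisons, so their values are given side by side only. In D5-LSKCD201- against mESC, with 14.3% of all genes called (10.9% higher and 3.48% lower), 8 were fitted and Adora1 and Adora2a were called higher, at 1.53 (SE 0.22) and 1.56 (SE 0.12). In FL- against BM-LSKCD201+, with 19.1% of all genes called (7.78% higher and 11.3% lower), 6 were fitted, and Adk was called higher in FL-LSKCD201+, at 1.04 (SE 0.10), and Adora2a lower, at -1.46 (SE 0.10). Without replicate 1 of FL-LSKCD201+ the Adk difference was 0.97, under the threshold. The genes that passed the filter are those with enough signal in at least one group, and the genes were chosen on these same values, so nothing is read from these counts.

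**Figure D3:**
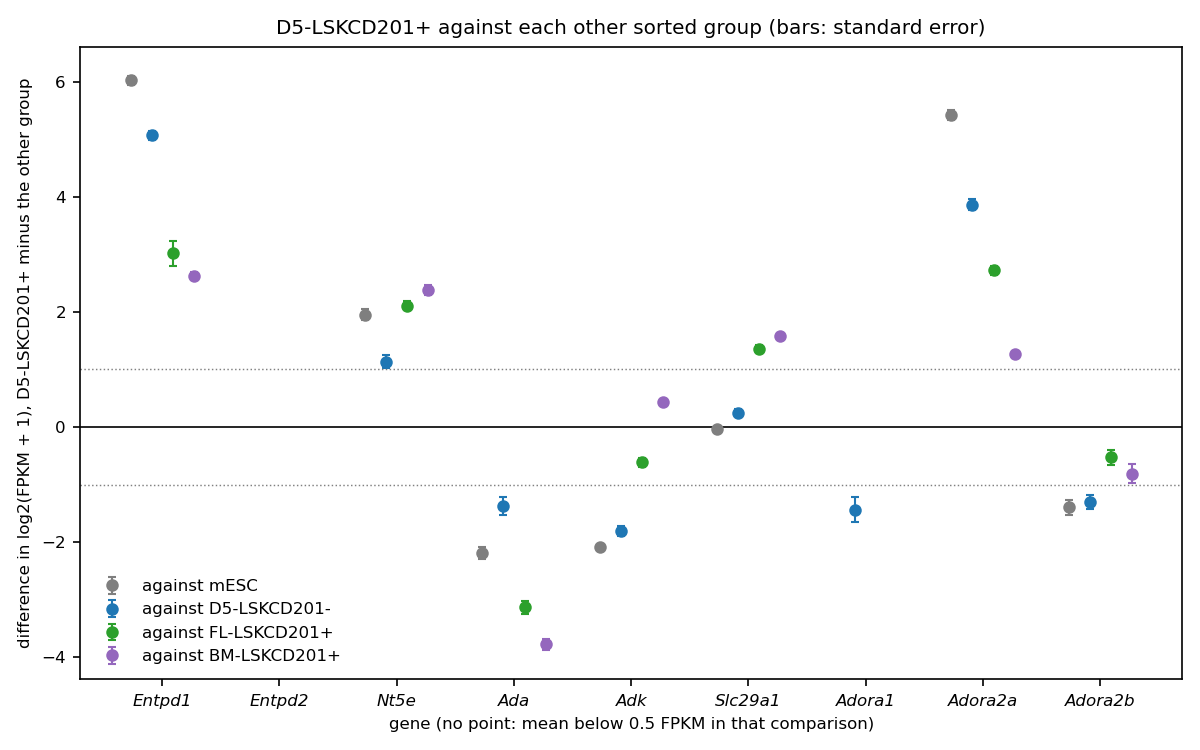
Difference in log2(FPKM + 1) of D5-LSKCD201+ from each of the 4 other sorted groups (y axis), for each gene (x axis), with bars for the standard error and dotted lines at 1 and -1. Entpd1, Nt5e and Adora2a lie above 1 in all 4 comparisons and Ada below -1 in all 4.

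Across the 15 sorted-cell libraries, which come from 5 groups of 3 and therefore hold few independent points, Entpd1 and Adora2a had a Pearson r of 0.97 on the log2(FPKM + 1) scale. Nt5e was less like Entpd1 (r 0.52) and was most opposed to Ada (r -0.96). Adk was opposed to Adora2a (r -0.91) and to Entpd1 (r -0.85), and Adora2b to Entpd1 (r -0.92). These values describe the group means more than the replicates.

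Over the same libraries, the 3 genes out of 14457 with the pattern most like each gene were found by the same measure. For Entpd1 they were Prcp (r 0.993), C2cd2 and Arhgap31. For Adora2a they were Ulk2 (r 0.992), Armcx3 and St3gal1. Nt5e was nearest to Fstl1 (r 0.992), Cav1 and Mpzl1, and Cav1, which encodes the caveolar protein caveolin-1, was at 218 FPKM on average in D5-LSKCD201+ and 0.0903 in BM-LSKCD201+. Ada was nearest to Wdyhv1 (r 0.989), Dtd1 and Kcmf1, and Adk to Rtkn2 (r 0.992), Cep78 and Tada2a. Slc29a1 was nearest to Raet1e (r 0.992), Lrp11 and Lamp1, a lysosomal membrane protein. Adora1 was nearest to Foxq1 (r 0.993), Irs4 and Pth1r, the parathyroid hormone receptor. Foxq1 averaged 20.5 FPKM in D5-LSKCD201- and at most 0.425 in any other sorted group. Adora2b had lower values, with Rabggta (r 0.979), Cwc27 and Irak1bp1. Entpd2 was left out because no group reached a mean of 1 FPKM.

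In the total cells on day 5, the same genes were read on OP9 and on gelatin alone. Slc29a1 was at 47.8, 45.1 and 43.5 FPKM in 3D+OP9 and at 26.5, 22.4 and 24.9 in 3D+0.1% gelatin, a log2 difference of 0.86 (SE 0.09) with no overlap. Adora2a was at 1.73, 0.97 and 1.62 against 0.96, 0.54 and 0.40, so that the groups were apart by a single unit in the second decimal (log2 difference 0.58, SE 0.18). Entpd1 was at 0.19, 0.47 and 0.34 against 0.03 in each library without stroma, and it was below the filter.

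Other members were lower or overlapped. Nt5e was at 2.80, 2.56 and 1.09 FPKM in 3D+OP9 and at 4.38, 5.76 and 3.45 in 3D+0.1% gelatin, a log2 difference of -0.84 (SE 0.26), or -0.57 without replicate 3 of 3D+OP9, the library that stood apart. Adk was at 53.2, 53.4 and 64.3 against 67.9, 89.2 and 76.95, a log2 difference of -0.44 (SE 0.12), again with no overlap. The arms overlapped for Ada (4.36 ± 1.03 against 4.07 ± 0.240 FPKM), Adora1 (1.02 ± 0.370 against 0.737 ± 0.302), Adora2b (0.537 ± 0.185 against 0.667 ± 0.151) and Entpd2 (0.453 ± 0.253 against 0.493 ± 0.166), and the intervals of the log2 difference were -0.30 to 0.42 for Ada, -0.23 to 0.65 for Adora1 and -0.44 to 0.20 for Adora2b. By limma, 2.62% of the 12958 genes fitted passed both thresholds. Of the 7 of these 9 genes that were fitted, 0 did. An unadjusted p was under 0.05 in 4, beside 22.9% of all genes, and an adjusted p in 1, Slc29a1, beside 6.88%. The replicates of 4 did not overlap, beside 28.7% of all genes. The genes were chosen with these values known, and nothing is read from these counts. The endothelial marker sum was 116 to 140 in 3D+OP9 and 23.0 to 39.5 in 3D+0.1% gelatin, and the stromal sum was 77.02 to 87.4 against 45.3 to 56.6. The sum of 6 erythroid markers was 187 to 695 against 3.99 to 18.45, and that of the leukocyte markers 11.45 to 16.7 against 4.91 to 6.05. The naive pluripotency sum overlapped, at 763, 759.6 and 1312 in 3D+OP9 replicates 1, 2 and 3 against 1166 to 1262. Replicates 1 and 2 lay below every gelatin library, and only replicate 3, the library that stood apart, lay higher. Pou5f1, which encodes the pluripotency factor Oct4, was at 327 to 503 against 579 to 653, lower on OP9 like Adk and Nt5e. Within the OP9 arm, replicate 3 had the highest naive pluripotency sum, with the highest Adk (64.3) and the lowest Nt5e (1.09). In the sorted cells, mESC had Pou5f1 at 426 and Nt5e at 0.356 FPKM on average, and D5-LSKCD201+ had 2.34 and 4.22. The stromal sum was higher on OP9, where Nt5e was lower. Total cells of the 3D+OP9 arm can hold OP9 cells, and the part of any of these in the differences was not tested.

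**Figure D4:**
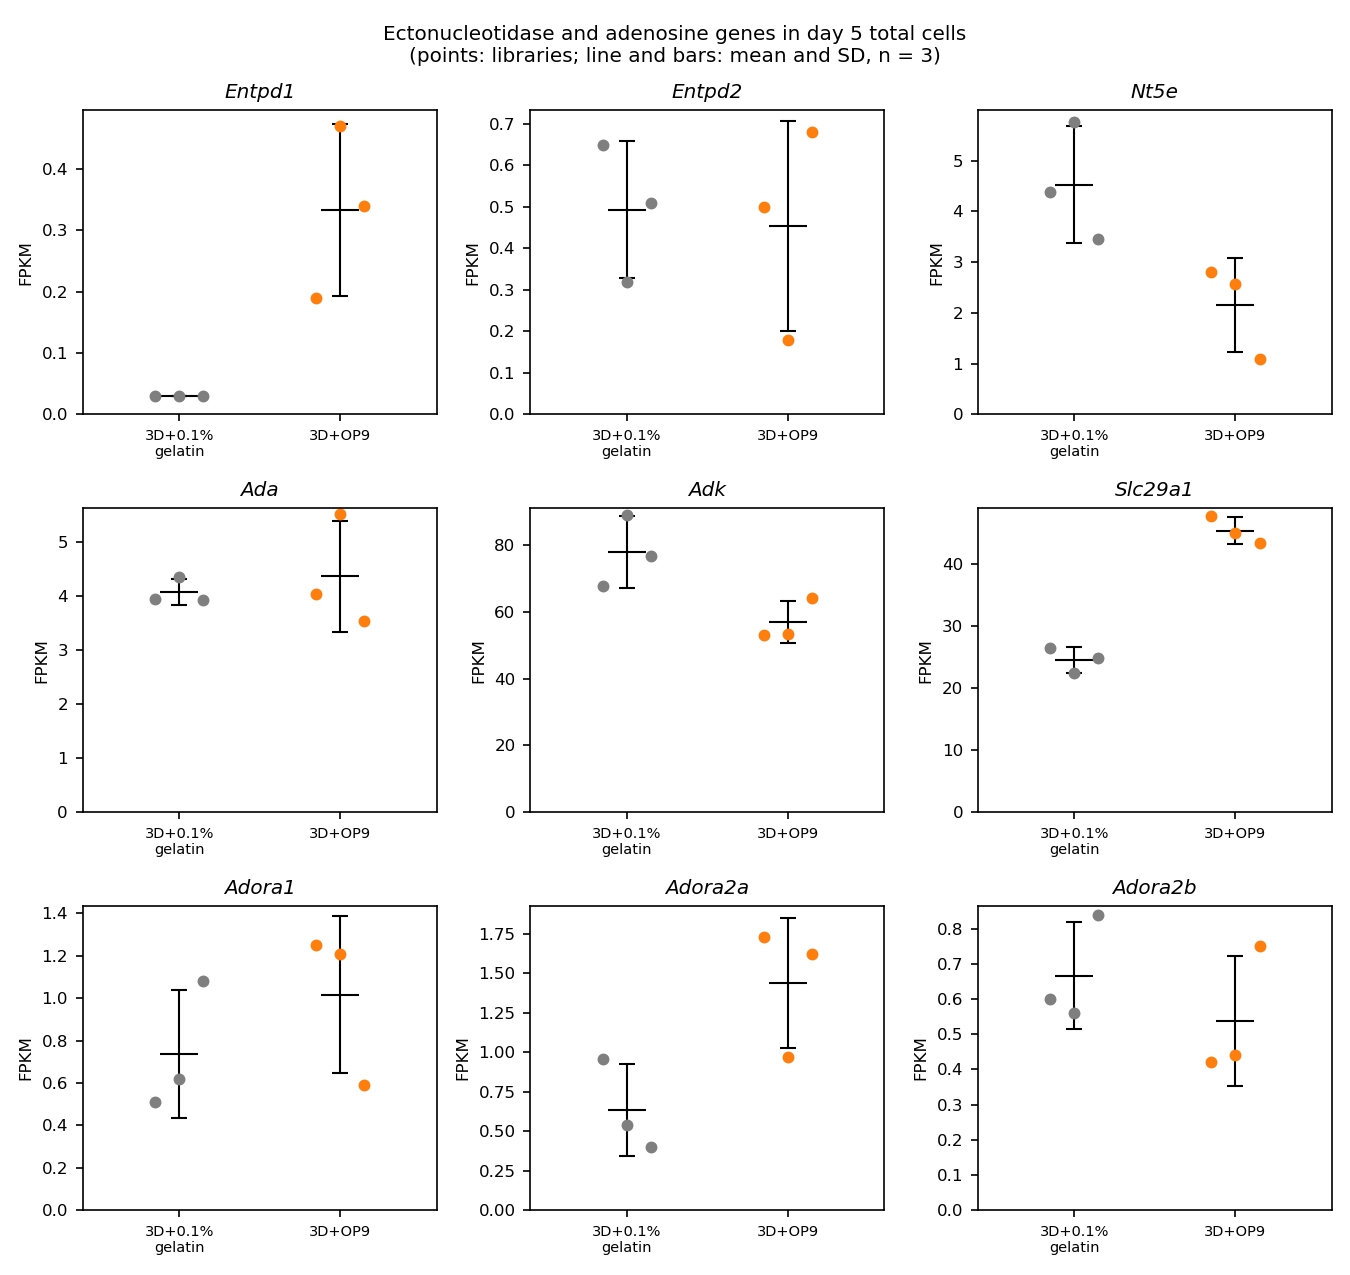
FPKM of the 9 genes (one panel each, y axis from 0) in total cells on day 5 without stroma (3D+0.1% gelatin) and on OP9 (3D+OP9). Points are the 3 libraries of a group, and the line with bars is their mean and SD. Slc29a1 lies at 43.5 to 47.8 on OP9 and 22.4 to 26.5 without it.

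A further 77 genes of the purinergic pathway, in 5 lists by role, were read from the same fits. These lists too were chosen with earlier results of these data known, so their p-values are not independent support for a difference. A gene with a mean under 0.5 FPKM in its lower group passed the filter only through the higher one, which favours a call, and such genes are counted beside each comparison. Between D5-LSKCD201+ and D5-LSKCD201-, 53 of the 77 were fitted, 12 were higher and 5 lower, and their median log2 difference was 0.13, beside -0.12 over all genes. Over all genes fitted there, 10.8% were higher and 13.9% lower. Of 14 genes of extracellular nucleotide hydrolysis, 11 were fitted. Cd38, an ectoenzyme that consumes NAD, rose to 80.4 ± 4.88 FPKM from 6.01 ± 0.537 (log2 difference 3.54, SE 0.08, limma adjusted p 1.17e-07), and Enpp2, which mainly makes lysophosphatidic acid, rose by 2.01 (SE 0.10, adjusted p 2.33e-06). Alpl, the alkaline phosphatase that can also cut AMP and is a pluripotency marker, fell to 7.80 ± 0.253 from 82.9 ± 1.90 FPKM (log2 difference -3.25, SE 0.06, adjusted p 4.50e-08), and Enpp3, an ATP-cutting ectoenzyme, fell by 2.58 (SE 0.11, adjusted p 1.68e-06). Of 9 transporters and ATP release genes, 6 were fitted, 0 were higher by limma and 2 lower: Slc28a1, a concentrative nucleoside carrier, fell by 3.23 and Slc17a9, which loads ATP into vesicles, fell by 3.16. These were the 2 of the 17 called genes that passed the filter only through D5-LSKCD201-.

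Among 25 genes of cAMP signalling downstream of the receptors, 19 were fitted, and 6 were higher and 0 lower by limma in D5-LSKCD201+ than in D5-LSKCD201-, beside the same 10.8% and 13.9% of all genes. Adcy4, an adenylyl cyclase, stood at 50.2 ± 1.77 FPKM against 1.78 ± 0.130 (log2 difference 4.20, SE 0.08, limma adjusted p 4.96e-08), and Pde4b, a phosphodiesterase that breaks cAMP down, stood at 133 ± 2.53 against 6.30 ± 1.27 (4.21, SE 0.12, adjusted p 2.44e-07). The other 4 were Prkar2b, Prkar1a, Gnas and Gnai2, of which Gnai2 encodes an inhibitory G protein subunit. Among 15 genes of P2 receptors and the A3 receptor, 6 were fitted. P2ry1, a receptor for ADP, rose to 4.16 ± 0.183 FPKM from 0.833 ± 0.144 (adjusted p 1.07e-05), and P2ry2, a receptor for ATP and UTP, rose by 1.36 on the log2 scale. Of 14 genes of intracellular adenosine and AMP metabolism, 11 were fitted. Nt5c, a cytosolic nucleotidase, and Ampd3, an AMP deaminase, rose by 1.01 and 1.08, and Ak1, an adenylate kinase, fell by 1.18. Adcy4, like Entpd1 and Adora2a, had its highest sorted-cell level where the endothelial marker sum was highest, and the part of that in the result was not tested.

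Against mESC, 53 of the 77 genes were fitted, with 14 higher and 9 lower in D5-LSKCD201+, beside 19.5% and 18.1% of all genes (median log2 difference 0.13, beside -0.07 over all genes). The cAMP list had 5 higher and 2 lower of 19 fitted. Pde4b was higher by 6.43 (SE 0.09) and Adcy4 by 5.56 (SE 0.07), and Adcy3 and Prkar2a fell by 1.32 and 1.10. Of the 23 called genes, 5 passed the filter through one group only, with P2ry1, P2rx1 and Adcy4 higher and Slc28a1 and Slc17a9 lower. Cd38 rose by 4.24 and Enpp2 by 1.94, and Enpp3 and Alpl fell by 4.27 and 2.85. Slc28a1 fell by 2.93 and Slc29a4, an equilibrative carrier of monoamines and adenosine, by 2.33. P2ry2 and P2ry1 rose by 2.58 and 1.90, Dpp4, a cell surface peptidase kept in the list of adenosine and AMP metabolism, rose by 1.81 and Nt5c3 by 1.48, and Nt5c2 fell by 1.25. In D5-LSKCD201- against mESC, 8 of 53 were higher and 3 lower, beside 10.9% and 3.48% of all genes (median 0.07, beside 0.05). Pde4b rose there by 2.22, Slc17a9 by 1.83 and Prkar2b by 1.55, while Enpp3 fell by 1.68, Slc29a4 by 1.38 and Ampd3 by 1.04. P2rx4, P2ry2 and Dpp4 rose by 1.43, 1.21 and 1.26. Adcy4 was the 1 of the 11 called genes that passed the filter only through D5-LSKCD201-.

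Against FL-LSKCD201+, 58 of the 77 were fitted, with 11 higher and 17 lower in D5-LSKCD201+ (median -0.38, beside -0.16 over all genes). Against BM-LSKCD201+, 57 were fitted, with 10 higher and 19 lower (median -0.23, beside -0.23). Of the P2 and A3 receptor genes, 6 of the 10 fitted were lower than in fetal liver and 1 higher, beside 19.6% and 15.1% of all genes, and 6 of the 9 fitted were lower than in bone marrow and 1 higher, beside 27.2% and 17.5%. P2rx1, an ATP-gated channel of blood cells, fell by 3.21 and 3.14, and P2ry14, the UDP-glucose receptor, fell by 1.83 and 5.27. Of the 6 lower genes, 3 passed the filter only through fetal liver (P2ry13, P2ry14 and P2rx2) and 3 only through bone marrow (P2ry13, P2ry14 and P2rx6), so nothing is read from the excess over all genes. Over all 5 lists, 8 of the 28 called genes and 10 of the 29 passed through one group only, among them Slc28a2 and Slc17a9 in both, Enpp2 and Gnai1 against fetal liver and Adcy4 against bone marrow. P2ry2 was higher by 1.44 than in fetal liver, and P2ry1 by 1.55 than in bone marrow. Slc28a2, a purine nucleoside carrier, fell by 2.41 and 3.77, and Slc17a9 had log2 differences of -2.64 and -3.52, whereas Slc29a1 was higher than in both. The cyclases differed by member: Adcy4 was higher by 5.06 and 5.38, whereas Adcy7 had log2 differences of -3.77 and -3.53. Gnai1 was higher by 2.58 and 2.29, Cd38 by 4.60 and 5.15 and Enpp2 by 3.53 and 3.26. Entpd5, an intracellular relative of Entpd1, fell by 1.69 and 2.54, and Nt5c2, a cytosolic nucleotidase, by 1.27 and 2.01. Each value of the first comparison comes before that of the second, and both share the D5-LSKCD201+ libraries and a difference in labelled strain. The leukocyte marker sum was lower in D5-LSKCD201+ than in both, as was that of 6 myeloid markers (7.57 to 8.22), and their part in these results was not tested.

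Between FL- and BM-LSKCD201+, 4 of 55 fitted genes were higher and 8 lower in FL-LSKCD201+, beside 7.78% and 11.3% of all genes (median -0.05, beside -0.13 over all genes). P2ry14 fell to 3.47 ± 0.244 FPKM from 47.3 ± 1.71 (log2 difference -3.43, SE 0.09, limma adjusted p 7.58e-07), and Enpp5 and Dpp4 fell by 2.28 and 1.90. P2rx2 and P2ry1 rose by 1.77 and 1.68, and Alpl rose by 1.11. Of the 12 called genes, 3 passed the filter through one group only (Alpl, P2rx2 and P2rx6). Marker sums also differed between these groups, being 327 to 385 in FL-LSKCD201+ against 4.43 to 13.1 in BM-LSKCD201+ for the erythroid list, 1658 to 1789 against 426 to 448 for the myeloid list and 344 to 518 against 6.17 to 9.82 for the endoderm list, and their part in the result was not tested. In the coculture, 2 of 55 fitted genes were called, beside 2.62% of all genes. P2rx1 was at 1.28 ± 0.178 FPKM in 3D+OP9 and 0.02 ± 0.02 in 3D+0.1% gelatin (log2 difference 1.16, SE 0.12), having passed the filter through the OP9 arm alone. The other was Prkar2b, a regulatory subunit of protein kinase A, at 13.9 ± 2.34 and 3.75 ± 0.554 (1.65, SE 0.15, adjusted p 0.00157).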

How the data were processed

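RNA-seq was analysed from 21 libraries, 3 in each of 7 groups, named from the sample labels. The authors deposited FPKM in 2 tables normalized separately, so no comparison crosses them. According to the study's methods, TRIzol was used for RNA and the VAHTS mRNA-seq kit for libraries, with HISAT2 (2.0.5) for alignment to GRCm38, StringTie (1.3.3) for assembly and Cuffdiff (1.3.0) for testing, the versions being those of the submitters' processing notes. Those notes list mm9 beside GRCm38, with no role given. Strand use in counting and sequencing depth are not given in the sources used here. Of 22899 genes in the coculture table, 3578 were blank in all 6 libraries. Coculture values are rounded to 2 decimals. Gene positions are those of GENCODE M21.

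Values were analysed as log2(FPKM + 1), which understates differences of weakly expressed genes. After a filter at 0.5 FPKM on the mean of the libraries compared, genes were fitted in R 4.3.3 by limma 3.58.1 with a trended prior variance and two-sided p-values, with Benjamini-Hochberg adjustment over all genes fitted in each of 7 comparisons. Calls needed an adjusted p under 0.05 with a log2 difference of 1 or more in either direction. An exact permutation test of 3 against 3 cannot go below a two-sided p of 0.1. The paper calls the 3 replicates of each sorted-cell group biological. The labels do not say that replicates came from separate cultures or animals. The p-values therefore measure the spread between these samples, part of which may be technical. The code was tested on simulated data. Figures used Python 3.11.15 and matplotlib 3.10.9. Cuffdiff and DAVID were not run.

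The 9 genes, the 5 pathway lists, the 10 marker lists and the 5 motifs were chosen with earlier results of these data known. Genes named are the 9, up to 2 called genes with the largest change in each direction per list and comparison, and the 3 genes most like each of the 9 except Entpd2. Genes outside that rule (Prkar1a, Gnas and Gnai2 in D5-LSKCD201+ against D5-LSKCD201-, Prkar2b there, P2rx1 against mESC, P2ry13, P2rx2 and P2rx6, Slc17a9 and Adcy4 where outside the rule, and the surface and lineage markers) were named after their values were seen. The deviations of same-numbered replicates correlated above 0.1 for every number in FL- against BM-LSKCD201+ (r 0.24, 0.20 and 0.16 for numbers 1, 2 and 3). By the rule set the number would pair those samples, but the rule cannot show pairing here. Replicate 1 stood apart in both groups, and FL-LSKCD201+ replicate 2 had the same r of 0.20 with BM-LSKCD201+ replicate 3. Fetal liver and the bone marrow of mice 6 to 8 weeks old share no animal, so the main fit did not pair them. In the coculture r was 0.18, 0.07 and 0.29, and in each other comparison at least 1 number was also under 0.1. The alternatives tried were quantile normalization, a smaller pseudocount (0.1), a filter at 1 FPKM or none, no trend, a block for the replicate number, a joint fit of all sorted groups, each library left out, and, chosen after seeing the data, averaging the closest pair of replicates in the 4 groups with a library apart.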

Additional observations from a re-analysis of the deposited data

How the results depend on the processing

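No log2 difference of the 9 genes changed sign among those called, under any alternative run. Of 687 values under the alternatives, 639 moved by less than the spread between replicates. With a pseudocount of 0.1, the genes called in D5-LSKCD201- against mESC were 4 in place of 2 of the 9, and the other pathway genes called in the coculture were 5 in place of 2, and 1 with a filter at 1 FPKM. Entpd1 and Nt5e were the genes gained in D5-LSKCD201- against mESC, at 2.57 and 1.74, and Adora2b was gained in D5-LSKCD201+ against FL-LSKCD201+ and BM-LSKCD201+, at -1.30 and -1.79. Leaving out each library in turn gave 0 to 0 of the 9 genes called in the coculture, 7 to 7 in D5-LSKCD201+ against D5-LSKCD201-, 2 to 3 in D5-LSKCD201- against mESC and 1 to 2 in FL- against BM-LSKCD201+. The count of 1 came without FL-LSKCD201+ replicate 1. Over all genes, the coculture had 339 calls, 531 with a pseudocount of 0.1 and 209 without 3D+0.1% gelatin replicate 2. With the replicate number as a block, 2 of the 9 genes and 12 other pathway genes were called in FL- against BM-LSKCD201+, as without it. The block changed none of these counts in the other comparisons: 0, 7, 6, 2, 5 and 5 of the 9 genes were called in the order given in the report for the coculture, D5-LSKCD201-, mESC, D5-LSKCD201- against mESC, FL-LSKCD201+ and BM-LSKCD201+. The labels do not say whether same-numbered D5-LSKCD201+ and D5-LSKCD201- libraries came from the same sort. Quantile normalization moved the median log2 difference of all genes from -0.12 to -0.01 in D5-LSKCD201+ against D5-LSKCD201-, from -0.16 to -0.05 against FL-LSKCD201+, from -0.23 to -0.02 against BM-LSKCD201+, from 0.05 to -0.10 in D5-LSKCD201- against mESC and from -0.13 to -0.02 in FL- against BM-LSKCD201+, and in D5-LSKCD201- against mESC it changed the calls from 1476 higher and 473 lower to 1104 and 741. The same change was from 1475 and 1904 to 1716 and 1599 in D5-LSKCD201+ against D5-LSKCD201-, from 2626 and 2430 to 2499 and 2611 against mESC, from 2054 and 2673 to 2314 and 2296 against FL-LSKCD201+, from 2406 and 3753 to 2890 and 3007 against BM-LSKCD201+ and from 1050 and 1531 to 1211 and 1245 in FL- against BM-LSKCD201+. Slc29a1 moved from 0.25 to 0.39 in D5-LSKCD201+ against D5-LSKCD201- under it. The cause of these changes was not tested. Limits are the unknown depth, 3 libraries a group, the difference in labelled strain between PSC-derived and mouse cells, and levels near 0 for Entpd2 and Adora1, which the scale compresses.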
